A study of Homo sapiens with 6 samples.

Results

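The growth factors VEGFA and PDGFC and the receptor NRP1 are described here in colon fibroblasts given sonic hedgehog. They were measured by 8 probe sets, 4 for VEGFA, 2 for PDGFC and 2 for NRP1, out of 54613 on the arrays. A probe set was taken where either symbol column of the authors' deposited list, which is limited to p of 0.05 or less, named the gene (VEGF, the older symbol, for VEGFA). That p compares the same arrays as the values below. Differences between the groups in these 8 probe sets are therefore given as a description, without a test. In the authors' deposited table the 8 had p between 0.000271 and 0.0432, and q between 0.417 and 0.999. The probe set nearest to the 0.05 limit was 242677_at of NRP1. Probe sets of these genes above the limit carry no name here, so none just outside it can be shown, and an unnamed probe set of the same gene may be unchanged.

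The arrays were single-colour Affymetrix arrays of CCD-18Co, an established human line of colon fibroblasts that the submitters also call myofibroblasts. In the first group, 3 cultures received SHH (sonic hedgehog, a secreted ligand) at 1 ug/ml for 72 h. In the second, 3 cultures were untreated, a group that the deposited readme calls vehicle, and no culture time is recorded for it. The culture medium of both groups held 0.1% bovine serum albumin (BSA), and the design text calls the cultures biological replicates. All cultures are of 1 cell line, which limits the groups as a model of colon fibroblasts. Signals are on a linear scale, and the median probe set of an array read 94.4 to 111. Trimmed means were nearly equal over the arrays (498.1 to 498.2). Precision is limited by the number of arrays. PTCH1, the hedgehog receptor and a classical target of the pathway, was looked up as a sign that the ligand had acted. Its name too came from the authors' list, which is limited by p in these arrays. A PTCH1 probe set without a difference would carry no name, so PTCH1 is no independent check. Its signal was 8635 ± 414 in SHH-treated and 1368 ± 77.4 in untreated cells (SD, n = 3 each; limma adjusted p = 0.0249), a call that no fit on 5 arrays kept.

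VEGFA (vascular endothelial growth factor A) is a secreted dimer that drives the growth of blood vessels through tyrosine kinase receptors on endothelial cells, and fibroblasts are a known source of it. PDGFC (platelet derived growth factor C) belongs to the same cystine-knot family of growth factors. It is secreted in a latent form, and once its CUB domain has been cleaved off it binds PDGF receptors, which fibroblasts and pericytes carry. NRP1 (neuropilin 1) is a membrane co-receptor without a kinase domain of its own. It binds the heparin-binding forms of VEGFA and, through the same extracellular part, the class 3 semaphorins, which signal by way of plexins.

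Both growth factors were higher in SHH-treated cells and the receptor was lower. By the brightest probe set of each gene, VEGFA signal was 1.98 times and PDGFC signal 1.91 times that of untreated cells, while NRP1 signal was 0.523 times that of untreated cells. The 3 SHH arrays and the 3 untreated arrays did not overlap in any of the 8 probe sets, 6 higher and 2 lower with SHH. The groups did not overlap in 17.3% of all probe sets, made up of the 6.97% of all that were higher and the 10.3% of all that were lower. Since the members were chosen by their p in these arrays, nothing is read from that count.

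The brightest VEGFA probe set, 210512_s_at, had signals of 9149, 9091 and 8571 on SHH arrays 1, 2 and 3, against 4285, 4430 and 4840 on untreated arrays 1, 2 and 3. All SHH arrays were high and all untreated arrays low, and the lowest SHH array was 1.77 times as high as the highest untreated one. Its mean was 8937 ± 319 with SHH and 4518 ± 288 in untreated cells (SD, n = 3 each). The log2 difference, SHH minus untreated on the log2(signal + 16) scale, was 0.98 ± 0.11. The ± after a log2 difference is the SE from limma, moderated by the variance over the whole array. Affymetrix names with _s_at mark probe sets whose probes match several transcripts, often of 1 gene, and those with _x_at may also hybridise with other sequences.

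Probe set 212171_x_at of VEGFA had signals of 2819, 2864 and 2623 on the SHH arrays, against 1114, 1133 and 1258 on the untreated arrays. Its log2 difference was 1.23 ± 0.11. The groups lay far apart relative to their spread, with a coefficient of variation of 4.64% in SHH-treated and 6.67% in untreated cells. For 210513_s_at, the SHH arrays gave 2021, 1853 and 2014 and the untreated arrays 675, 771 and 792. That is a log2 difference of 1.38 ± 0.12. Again every SHH array lay above every untreated array, the lowest of them 2.34 times as high as the highest untreated one. The most variable VEGFA probe set was 211527_x_at, with 1728, 2087 and 1530 on the SHH arrays, against 552, 801 and 680 on the untreated arrays. Its coefficient of variation was 15.9% with SHH and 18.4% in untreated cells, and its log2 difference was 1.38 ± 0.19.

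These 4 probe sets read the same RNA on the same arrays and are not replicates of each other. They shared the direction and differed in size, from 0.98 to 1.38 on the log2 scale. Within each array, 212171_x_at relative to 210512_s_at had a log2 ratio of -1.69 ± 0.02 with SHH and -1.94 ± 0.01 in untreated cells (SD, n = 3 each). The ratios of the 2 groups did not overlap, and the difference between SHH and untreated cells was larger in 212171_x_at by 0.25 on the log2 scale. The ratio of 210513_s_at to 210512_s_at behaved alike, at -2.18 ± 0.10 with SHH and -2.57 ± 0.07 in untreated cells. For 211527_x_at against 210512_s_at the ratios of the groups overlapped, with -2.33 ± 0.19 with SHH and -2.72 ± 0.25 in untreated cells. After quantile normalization the 3 ratios differed between SHH and untreated cells by 0.32, 0.47 and 0.48 on the log2 scale, and the groups overlapped in none of them. The brighter probe set had the smaller difference in all 3 of these pairs. It was 210512_s_at each time, so the pairs are not independent of each other. In the pairs among the other 3 probe sets the ratios of the groups overlapped, with and without quantile normalization. The part of brightness in this was not tested.

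**Figure D1:**
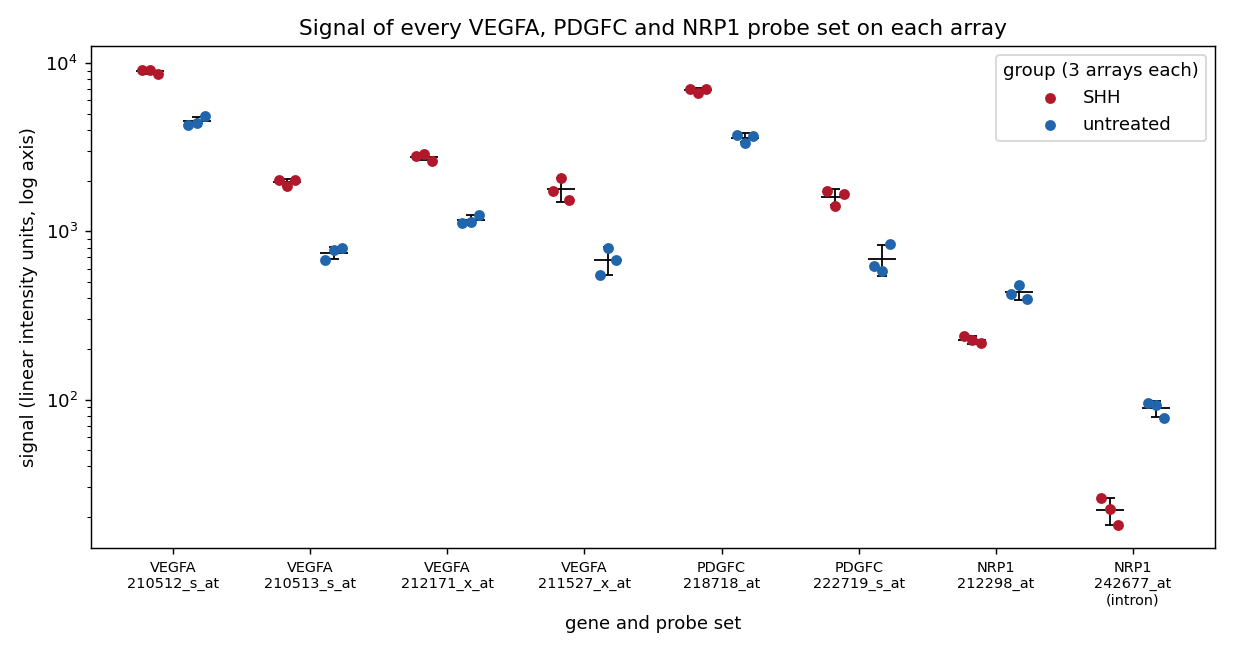
Signal (linear intensity units, log axis) of each VEGFA, PDGFC and NRP1 probe set on each array, SHH in red and untreated in blue. Points are arrays, the wide ticks are group means and the bars are SD (n = 3 each). The SHH points lie above the untreated points in the 6 VEGFA and PDGFC probe sets and below them in both NRP1 probe sets.

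PDGFC gave a like picture by its brightest probe set, 218718_at. The signals were 7004, 6608 and 7022 on the SHH arrays, against 3757, 3356 and 3694 on the untreated arrays. No SHH array came near an untreated one, and both groups were tight, with coefficients of variation of 3.40% with SHH and 5.98% in untreated cells. The means were 6878 ± 234 in SHH-treated and 3603 ± 215 in untreated cells (SD, n = 3 each), and the log2 difference was 0.93 ± 0.11.

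The dimmer PDGFC probe set, 222719_s_at, had 1734, 1410 and 1678 on the SHH arrays, against 624, 583 and 844 on the untreated arrays. Untreated replicate 3 stood above the other two untreated arrays, and the lowest SHH array was still 1.67 times as high as it. Its log2 difference was 1.23 ± 0.18. Within arrays, 222719_s_at relative to 218718_at had a log2 ratio of -2.09 ± 0.11 with SHH and -2.39 ± 0.24 in untreated cells (SD, n = 3 each), and these ratios overlapped. The 2 PDGFC probe sets thus could not be set apart in the size of their difference by the spread of 3 arrays.

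NRP1 was lower with SHH. Its probe set 212298_at had signals of 239, 226 and 216 on the SHH arrays, against 423, 480 and 398 on the untreated arrays. All SHH signals were low and close together, and the lowest untreated array was 1.66 times as high as the highest SHH array. The means were 227 ± 11.8 with SHH and 434 ± 41.8 in untreated cells (SD, n = 3 each), a log2 difference of -0.88 ± 0.12.

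The second NRP1 probe set, 242677_at, is placed in an intron of the gene by the authors' annotation. It had signals of 26.0, 22.2 and 17.9 on the SHH arrays, against 95.2, 93.3 and 77.5 on the untreated arrays. All values lay below the median of their own array, those of the SHH arrays far below it, and the groups did not overlap. SHH minus untreated came to -1.46 ± 0.14 on the log2(signal + 16) scale. When limma let the variance depend on brightness (intensity trend), the SE of the same difference was 0.33. Because the signal is so dim, the constant added before the log sets the size: it was -1.97 when 1 was added and -0.83 when 64 was added. The probe set 212298_at moved less over the same settings, with -0.93 and -0.77 as log2 differences.

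Among all 54613 probe sets, 2.30% had an absolute log2 difference at least as large as that of the brightest VEGFA probe set. The share was 2.92% for 218718_at of PDGFC and 3.54% for 212298_at of NRP1. It was 0.375% for 210513_s_at, which with 211527_x_at had the largest difference of VEGFA. Averaged over the 6 arrays, 97.6% of all probe sets were dimmer than 210512_s_at, 96.8% were dimmer than 218718_at and 69.5% were dimmer than 212298_at, whereas 34.2% were dimmer than the intronic 242677_at. At limma's adjusted threshold of 0.05, 0.123% of all probe sets were past it, 67 in number. Of the 8 probe sets here 3 were among these 67, 210513_s_at and 212171_x_at of VEGFA and 242677_at of NRP1, from which nothing is read for the reason above. With arrays centred on their median, none of the 8 was past it, and 34 of all 54613 were. Fits on 5 arrays, with each array dropped once, called none of all probe sets, with 4411 to 5180 at an unadjusted p under 0.05 in limma. In the authors' deposited table, ordered by their t statistic, the 4 VEGFA probe sets held ranks 23, 30, 35 and 61 among those higher with SHH, and the 2 of PDGFC held ranks 40 and 74. For those lower with SHH, the 2 NRP1 probe sets held ranks 159 and 992 in the authors' deposited table. At p of 0.05 or less that table had 1235 probe sets higher and 1176 lower with SHH. The members were chosen by p from the same comparison, so nothing is read from their ranks. The lowest q of any probe set in the authors' deposited table was 0.392.

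**Figure D2:**
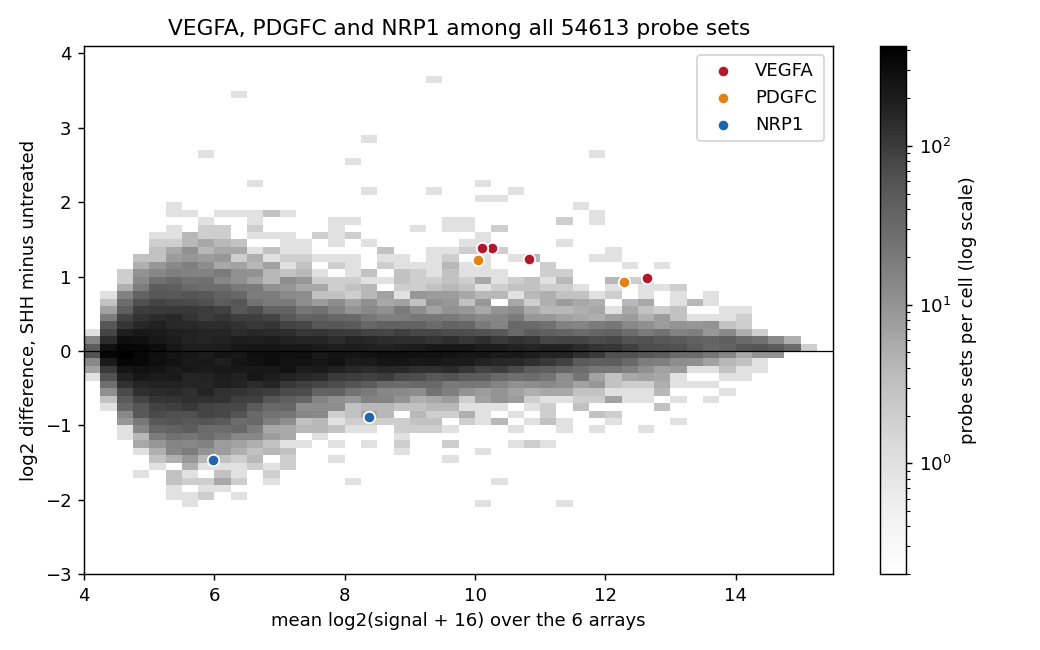
Log2 difference, SHH minus untreated, against mean log2(signal + 16) over the 6 arrays. Grey cells count all 54613 probe sets on a log scale, and coloured points are the probe sets of VEGFA (red), PDGFC (orange) and NRP1 (blue). The VEGFA and PDGFC points lie between 0.93 and 1.38 at bright signals, 212298_at of NRP1 lies at -0.88, and the intronic NRP1 probe set lies at -1.46 where dim probe sets scatter widely.

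The other ligands of both families were looked up in the same way. Of 9 VEGF and PDGF ligands, 4 had a name here, 3 higher and 1 lower with SHH, and none of their brightest probe sets passed limma's adjusted threshold. The median log2 difference of these 4 was 0.64, against 0.22 for all 1632 named genes, of which 818 were higher and 814 lower with SHH. Past limma's adjusted threshold were 26 of the higher and 14 of the lower genes (2.45% of the 1632). Names were given only to probe sets at p at or under 0.05, so the count of ligands is no independent evidence of a direction. VEGFC, the ligand best known for lymphatic vessels, had signals of 1351 ± 119 with SHH and 1797 ± 170 in untreated cells (SD, n = 3 each). Its log2 difference was -0.41 ± 0.13 (limma adjusted p = 0.404), the opposite sign to that of VEGFA. PDGFD, which is activated by proteolysis like PDGFC, had 2337 ± 32.1 with SHH and 1841 ± 123 in untreated cells, a log2 difference of 0.34 ± 0.11 (limma adjusted p = 0.392).

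All 3 named genes of the 8 VEGF and PDGF receptors were lower with SHH, with a median log2 difference of -0.46, and none passed limma's adjusted threshold by its brightest probe set. Besides NRP1 they were NRP2 and PDGFRB, and the other 5 receptors carry no name here. Of all named genes 50.1% were higher with SHH, and their median log2 difference was 0.22. Names required p at or under 0.05 in these arrays, so the counts by direction in this and the following lists are no independent evidence. NRP2, the related neuropilin that also binds VEGFC, had 2 named probe sets, at -0.38 ± 0.11 and -0.44 ± 0.15. By the brighter one its signals were 510 ± 12.8 with SHH and 673 ± 57.1 in untreated cells (SD, n = 3 each; limma adjusted p = 0.359). PDGFRB is a tyrosine kinase receptor for PDGF dimers and a marker of fibroblasts and pericytes. Its signals were 3400 ± 309 with SHH and 4690 ± 402 in untreated cells, a log2 difference of -0.46 ± 0.13 (limma adjusted p = 0.334).

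Of the 12 class 3 semaphorins and plexins, the other partners of neuropilins, 3 were named. With SHH 2 of them were higher and 1 was lower, and limma's adjusted p was above the threshold for each. SEMA3C, a secreted semaphorin that binds both neuropilins, had signals of 325 ± 19.3 with SHH and 578 ± 117 in untreated cells (SD, n = 3 each), a log2 difference of -0.78 ± 0.17 (limma adjusted p = 0.229). SEMA3A, an axon-repelling ligand of NRP1, had a log2 difference of 0.69 ± 0.24 (limma adjusted p = 0.438). The authors' annotation places its 1 named probe set 3' of the gene. PLXNA4, a plexin that pairs with neuropilins, had 223 ± 23.9 with SHH and 91.5 ± 23.1 in untreated cells, a log2 difference of 1.17 ± 0.19 (limma adjusted p = 0.119).

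**Figure D3:**
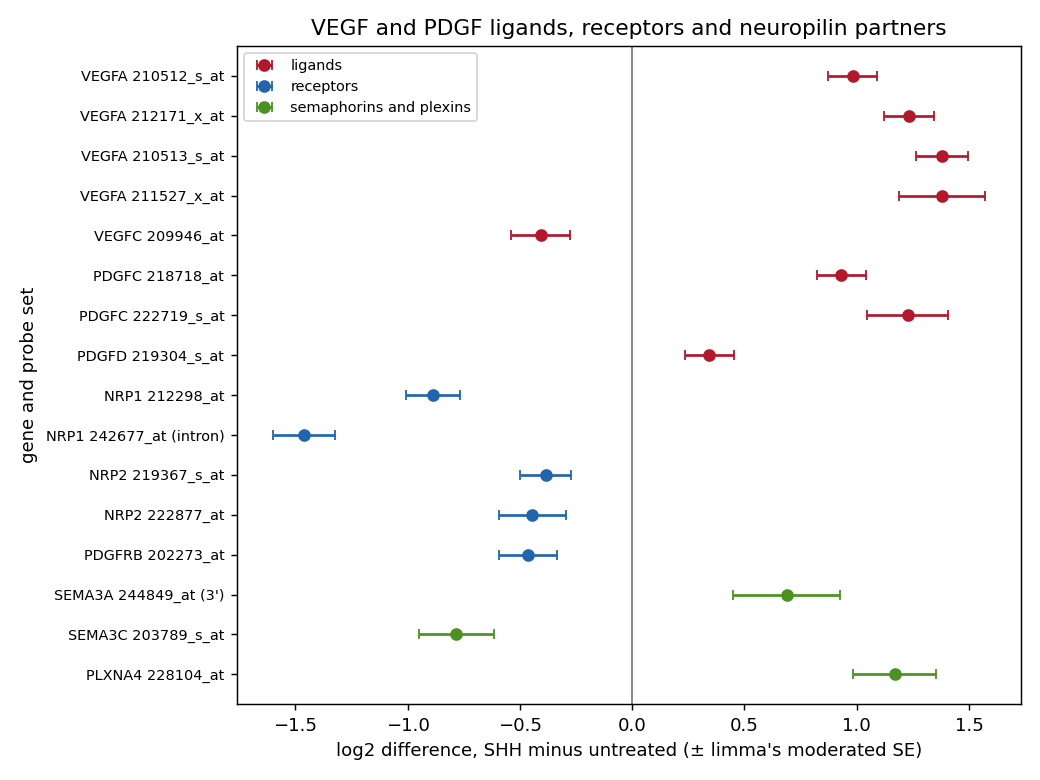
Log2 difference, SHH minus untreated, of every named probe set of the VEGF and PDGF ligands (red), their receptors (blue) and the semaphorins and plexins (green), with bars of limma's moderated SE. VEGFA, PDGFC and PDGFD lie right of 0 and VEGFC lies left of it. All probe sets of NRP1, NRP2 and PDGFRB lie left of 0, from -1.46 to -0.38.

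Proteases that release or activate growth factors and their inhibitors numbered 13, of which 4 were named. With SHH 1 was higher and 3 were lower, and limma's adjusted p was above 0.05 for each. The urokinase PLAU had signals of 3678 ± 165 with SHH and 1772 ± 130 in untreated cells (SD, n = 3 each), a log2 difference of 1.05 ± 0.11 (limma adjusted p = 0.0607). Its receptor PLAUR lay at -0.39 ± 0.12 and the metalloproteinase inhibitor TIMP3, which also blocks binding of VEGFA to an endothelial receptor, at -0.44 ± 0.17. PLAT, the protease best known for activating PDGFC, carried no name here.

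Of 33 other angiogenic factors and inhibitors, 14 had a name, 6 higher and 8 lower, with a median log2 difference of -0.41. The Notch ligand DLL4, which restrains sprouting in endothelial cells, rose by 1.78 ± 0.13 (limma adjusted p = 0.0423). The guidance factor SLIT2 rose by 1.23 ± 0.12 (limma adjusted p = 0.0496). That was the largest difference of its 3 named probe sets, all higher with SHH. The smallest was 0.80, and only 1 of the 3 was past the threshold. The calls of DLL4 and SLIT2 were lost when any 1 array was left out. Of all 1632 named genes 2.45% were past the threshold, and names were limited by p in these arrays, so nothing is read from the count. The brightest probe sets of the remaining 12 genes were not past the threshold, and the largest differences among them were those of the Notch ligand JAG1, 1.16 ± 0.17, and the chemokine CXCL12, -1.07 ± 0.11 (limma adjusted p = 0.100 and 0.0607). Of the 3 named JAG1 probe sets, 1 dimmer one was past it.

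VEGFA is also a standard target of hypoxia-inducible factor, so the genes of that response were counted. Of 31 hypoxia and HIF target genes 7 had a name, 2 higher and 5 lower, with a median log2 difference of -0.29 and none past the threshold. The other 24 carry no name here, and the part of this response in the VEGFA signal was not tested. The glucose transporter SLC2A1 had 4959 ± 217 with SHH and 3119 ± 388 in untreated cells (SD, n = 3 each), a log2 difference of 0.67 ± 0.13 (limma adjusted p = 0.196). Hexokinase HK2 lay at -0.60 ± 0.12 and the lipoprotein receptor VLDLR at -0.42 ± 0.11 (limma adjusted p = 0.188 and 0.297). The histone demethylase KDM3A was read by a dim probe set, at 3.64 ± 1.38 with SHH and 21.3 ± 12.4 in untreated cells, and at such signals the constant of 16 added before the log weighs on its log2 difference of -0.88.

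None of 12 endothelial markers had a name here, so whether endothelial transcripts were present could not be checked by name. Of the 12 fibroblast markers 5 had a name, all lower with SHH (-0.93 to -0.46 on the log2 scale) and none past the threshold. Their summed signal was 5694 to 6203 on the SHH arrays and 8269 to 9160 on the untreated arrays. These 5 were COL3A1, DCN, PDGFRB, FAP and S100A4, of which the DCN probe set is placed in an intron by the authors' annotation. The other 7, among them COL1A1, VIM and THY1, carry no name here, so the cell type label could be checked only in part. The summed signal of the 4 named of 6 pericyte markers was 3942 to 4354 with SHH and 4435 to 5248 in untreated cells, 1 higher and 3 lower. CD14 was the 1 named macrophage marker of 6, at 0.73 ± 0.25, and KRT18 the 1 named epithelial marker of 7, at -0.42 ± 0.11. The KRT18 signals were 4241 ± 258 with SHH and 5677 ± 349 in untreated cells (SD, n = 3 each). Within each group they were above those of every named fibroblast marker. KRT18 was read by an _x_at probe set, which may also hybridise with other sequences. Signals of different probe sets are not on a common scale of RNA amount, so no order of expression is read from them. Without PDGFRB, which gave most of it, the fibroblast sum was 2493 to 2778 with SHH and 3816 to 4005 in untreated cells. Without MCAM, which gave most of it, the pericyte sum was 1040 to 1394 with SHH and 1289 to 1565 in untreated cells, and the groups overlapped. The part of these markers in the lower NRP1 signal was not tested. In such bulk RNA, fewer cells of a type and less RNA per cell cannot be told apart.

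The genes most like each member were found by the root mean square difference between log2 profiles over the 6 arrays, each centred on its untreated mean, among 1629 other named genes. For VEGFA they were NSG1, PGD and GLIPR2, with root mean square differences of 0.048, 0.065 and 0.068, against a median of 0.87 over all the genes compared. PGD, an enzyme of the pentose phosphate pathway, had 7704 ± 276 with SHH and 3963 ± 194 in untreated cells (SD, n = 3 each). For PDGFC they were RPL5, PTGS1 and MGC33371, at 0.071, 0.076 and 0.080. The cyclooxygenase PTGS1 had 1561 ± 56.4 with SHH and 811 ± 22.3 in untreated cells. For NRP1 they were JCAD, PRO2859 and SFT2D1, at 0.061, 0.065 and 0.074. JCAD, a protein of endothelial cell junctions, had 834 ± 8.21 with SHH and 1585 ± 147 in untreated cells. PRO2859 and SFT2D1 were dim, with untreated means of 18.0 and 17.6, close to the constant of 16 added before the log. The likenesses cover the difference between the 2 groups as well as the spread within them, and are given as a description.

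**Figure D4:**
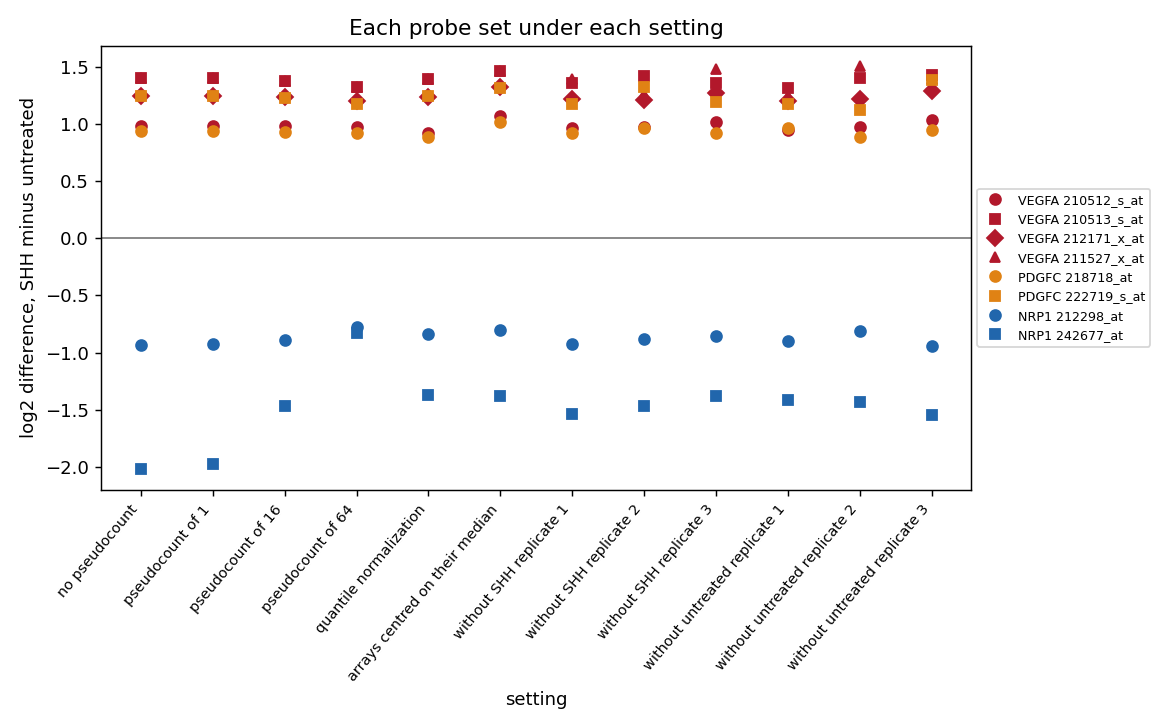
Log2 difference, SHH minus untreated, of each probe set with other pseudocounts, other scalings between arrays and 1 array left out. VEGFA and PDGFC points stay above 0 and NRP1 points stay below 0 in every setting drawn. The groups do not overlap, so pseudocounts and leaving out 1 array could not turn a sign. The widest move is that of the intronic NRP1 probe set, between -2.02 without a pseudocount and -0.83 with 64 added.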

How the data were processed

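Total RNA from 6 cultures was converted to biotin-labelled cRNA and hybridised to Affymetrix arrays, per the labels' protocols. Groups and replicate numbers came from the sample titles. The deposited value table gives 1 linear intensity per probe set and array. How images were read and how probes were summarised and scaled is not stated in any label or header. The authors compared the groups with Cyber-T, per the deposited readme. The authors' deposited comparison holds a t statistic (a score), a log2 fold change and the p-value and q-value of each probe set. Its direction is untreated minus SHH, which was reversed here, and its signals equal those of the value table.

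Names came from the 2411 probe sets of the authors' table at p at or under 0.05. A probe set was named where its symbol columns gave 1 symbol without conflict: 2131 probe sets, 1632 genes. Symbols were updated through synonyms in RefSeq's GRCh38.p14 gene table (1451 current, 415 updated, 265 kept). The brightest named probe set stands for a gene. The fit was limma 3.58.1 in R 4.3.3 on log2(intensity + 16) over 54613 probe sets without a filter, 2-sided, with Benjamini-Hochberg adjustment, and was tested on simulated data. Tables and figures used Python 3.11.15, pandas 2.3.3 and matplotlib 3.10.9. Differences on this scale understate the change of dim probe sets.

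The members and lists were chosen with earlier results of these data known. The text names the members, all named ligands, receptors and neuropilin partners, up to 4 genes of each other list by the size of their difference, PTCH1, named cell type markers, and the 3 genes most like each member. PLAT was named for its role. The values of 1 gene of the protease list are not reported here. The alternatives were the pseudocount, array scaling, the replicate number as a block, an intensity trend, a plain equal-variance test, a filter on dim probe sets, averaging a gene's probe sets, the authors' fold change and leaving out each array. No batch is recorded. Planned comparisons of promoters and proteins of VEGFA, PDGFC and NRP1 were not run.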

Additional observations from a re-analysis of the deposited data

How the results depend on the processing

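The log2 differences of VEGFA, PDGFC and NRP1 kept their sign under all alternatives run. The groups did not overlap in any of the 8 probe sets, so no pseudocount and no loss of 1 array could turn the sign. The replicate block and the intensity trend could not move the difference in this balanced design and changed only its SE. For 210512_s_at of VEGFA the SE was 0.11 in the main fit, 0.14 with the block and 0.07 with the trend. For 242677_at of NRP1 it was 0.14, 0.13 and 0.33 in the same order. Without 1 array the log2 differences ranged from 0.95 to 1.03 for VEGFA, from 0.88 to 0.96 for PDGFC and from -0.94 to -0.81 for NRP1. Centring each array on its median gave 1.07 for VEGFA and 1.02 for PDGFC. The mean of all named probe sets gave 1.24 for VEGFA, 1.08 for PDGFC and -1.17 for NRP1, and a pseudocount of 64 gave -0.77 for NRP1. All 8 probe sets kept groups that did not overlap under both other scalings. The share over all probe sets was not computed under those scalings. The members were chosen by their p in these arrays, so nothing is read from that count. Limma called 67 probe sets over the whole array (45 higher, 22 lower). That number was 0 with 1 as the pseudocount, 295 with 64, 34 after centring (32 higher, 2 lower), 147 by the plain equal-variance test, 1014 when limma used an intensity trend and 558 when probe sets under the median were left out. Of the 35 named genes of the angiogenesis lists, 2 were past the threshold (DLL4 and SLIT2). That count became 0, 10, 1, 7, 21 and 15 in that order, and 3 with quantile normalization. Of the 8 member probe sets 3 were past it, then 0, 8, 0, 4, 7 and 7 in that order. With quantile normalization 3 were, of 66 over the whole array. The filter had left out the dim intronic NRP1 probe set. Leaving out any 1 of the 6 arrays brought all 3 counts to 0 in limma, with 4411 to 5180 probe sets at an unadjusted p under 0.05. With the replicate block all 3 counts were 0 too (limma, 4746 probe sets at an unadjusted p under 0.05), and 5009 were at that level with a pseudocount of 1. Same-numbered arrays did not deviate together (r = 0.011, 0.019 and -0.015 over all probe sets). These r include the many dim probe sets, so they cannot show whether the cultures were paired by number. The share of higher probe sets at an unadjusted p under 0.05 was 39.1%, and 60.3% with arrays centred on their median. The cause of these moves was not tested. The planned promoter motifs were not run, and signal over background limits what can be said of the dim intronic NRP1 probe set.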
